A study of Mus musculus with 12 samples.

Results

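The 10 genes of transforming growth factor beta (TGF-beta) signaling were followed in RNA-seq of cultured mouse microglia: the 3 ligand genes *Tgfb1*, *Tgfb2* and *Tgfb3*, the receptor genes *Tgfbr1* and *Tgfbr2*, the signal mediators *Smad2*, *Smad3* and *Smad7*, the ligand-holding protein gene *Nrros* and the induced matrix protein gene *Tgfbi*. They were chosen by gene symbol and are 10 of the 48623 genes in the table. Each symbol had 1 Ensembl identifier. Primary microglia were grown from newborn C57BL/6J mice, either wild-type (WT) or carrying *Trem2* R47H on both alleles (KI, knock-in). The 3 WT cultures are called T13, T33 and T43 here, and the 3 KI cultures T15, T22 and T32. Each culture was sequenced untreated and after a treatment of 48 h with interleukin-4 (IL-4, 20 ng/ml), an anti-inflammatory cytokine, making 12 libraries in 4 groups of 3. By the study's methods WT preparations pooled the pups of a litter, whereas pups of the KI line were cultured 1 by 1 and genotyped later; since the sequenced WT cells are said to come from littermates of the KI mice, whether these WT cultures were pooled is not known. Microglia were freed of the astrocyte layer with mild trypsin and then kept in medium conditioned by that mixed glia.

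TGF-beta ligands are secreted as latent complexes, and the dimer has to be released before it can bind. Free ligand brings the kinases encoded by *Tgfbr2* and *Tgfbr1* together, which then phosphorylate SMAD2 and SMAD3, and SMAD7 is the induced inhibitor that closes the loop. In the brain, microglia hold latent TGF-beta1 on their surface through NRROS (also called LRRC33), and TGF-beta signaling is needed for the mature microglial expression program. Transcript levels say nothing of how much ligand is released, nor of SMAD phosphorylation.

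The values were TPM, transcript abundances scaled for length and to a common total per library, so that levels may be compared between genes. All 18 microglia markers were above 0 in every library, and their summed level was between 38342 and 39142 TPM in WT without treatment, between 41721 and 50705 TPM in IL-4-treated WT, between 16410 and 32820 TPM in untreated KI and between 26096 and 35852 TPM in IL-4-treated KI libraries. The lower summed level in KI libraries may be fewer microglia or less of these RNAs per cell, which cannot be told apart in bulk samples. Culture T15 stood apart, with astrocyte markers summing to 5009 TPM untreated and 3906 TPM with IL-4, against 174 to 737 TPM in the other 10 libraries. Oligodendrocyte lineage markers summed to 146 to 547 TPM in untreated KI and 69.5 to 137 TPM in untreated WT libraries. With IL-4 they summed to 143 to 377 TPM in KI and 81.3 to 151 TPM in WT. Neuron markers were low, at 16.2 to 58.7 TPM in untreated KI and 6.77 to 22.2 TPM in untreated WT libraries. Mural and fibroblast markers summed to between 753 and 1470 TPM in the KI and between 156 and 668 TPM in the WT libraries. Of the 7 of them tested, 4 were higher in KI by the limma test described below (*Acta2*, *Tagln*, *Cnn1* and *Pdpn*). The smooth muscle myosin gene *Myh11*, of the same list, was at no more than 6e-05 TPM in any of the 12 libraries. *Trem2* was at 1584 ± 282 TPM in untreated WT, against 566 ± 225 TPM in untreated KI libraries (SD, n = 3), a difference that passed the limma test described below (adjusted p = 0.00763). This call was lost without T33 (0.106) or T43 (0.0766), without the expression filter (0.126) and without the variance trend (0.06), and the difference was between -1.59 and -1.16 on the log2 scale whichever culture was left out.

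The promoters of 3 members are shown because these genes differ most in level and start site: *Tgfb1*, the dominant ligand gene, *Tgfb2*, the ligand gene at the lowest level, and *Nrros*, the member at the highest level. Each line gives the window from 250 bases before to 50 bases after the RefSeq start, 5′ to 3′ on the gene's strand (GRCm38.p6), at chr7:25686752-25687051 on the plus strand for *Tgfb1*, at chr1:186705940-186706239 on the minus strand for *Tgfb2* and at chr16:32165545-32165844 on the minus strand for *Nrros*. Capitals mark the matches to the motifs searched.
Tgfb1: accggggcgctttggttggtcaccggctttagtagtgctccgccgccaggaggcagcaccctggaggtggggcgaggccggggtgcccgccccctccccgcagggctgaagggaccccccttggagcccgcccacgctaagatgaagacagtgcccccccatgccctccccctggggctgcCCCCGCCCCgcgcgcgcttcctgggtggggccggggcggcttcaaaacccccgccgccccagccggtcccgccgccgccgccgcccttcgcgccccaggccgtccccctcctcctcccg
Tgfb2: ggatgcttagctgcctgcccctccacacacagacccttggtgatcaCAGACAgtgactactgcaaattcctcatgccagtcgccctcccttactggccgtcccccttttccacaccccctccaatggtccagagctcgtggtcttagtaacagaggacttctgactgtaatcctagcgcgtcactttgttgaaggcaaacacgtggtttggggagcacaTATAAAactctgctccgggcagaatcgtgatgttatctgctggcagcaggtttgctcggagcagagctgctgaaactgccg
Nrros: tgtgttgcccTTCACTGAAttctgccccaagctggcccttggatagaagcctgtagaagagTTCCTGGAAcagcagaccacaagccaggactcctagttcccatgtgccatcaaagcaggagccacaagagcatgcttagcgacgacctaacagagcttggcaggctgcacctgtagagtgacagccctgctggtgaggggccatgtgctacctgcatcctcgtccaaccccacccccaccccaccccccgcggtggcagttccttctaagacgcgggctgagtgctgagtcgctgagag
In all, 6 motifs were searched on both strands, and no 2 matches overlapped. The GC box GGGGCGGGG was found in *Tgfb1*, 69 bases before the start on the opposite strand, and in 11.4% of the 32851 promoter windows of the same length. The *Tgfb1* window held 77.0% G or C and 30 CG pairs, against medians of 52.7% and 7 over all windows. *Tgfb2* held the TATA box TATAAA 31 bases before its start, which 13.6% of windows hold, and the SMAD-binding element CAGACA 204 bases before it, which 21.0% hold. *Nrros* held TTCNNNGAA, the spacing many STAT proteins recognize, 240 and 189 bases before its start, as TTCACTGAA and TTCCTGGAA; 8.3% of windows have at least 1 such match. The wider spacing TTCNNNNGAA preferred by STAT6, the factor downstream of the IL-4 receptor, was in 6.95% of all windows. It was in none of the 7 members whose windows were kept, which leaves out *Tgfb3*, *Smad2* and *Smad7*. The PU.1 core GAGGAAGT was also in none of these 7 and in 3.2% of all windows. *Tgfbr1* had 2 windows, and the second held CAGACA.

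The members spanned a wide range of levels. *Nrros* was the highest at 138 ± 40.0 TPM (SD over 12 libraries), followed by *Tgfbr2* at 90.1 ± 31.2, *Tgfb1* at 89.7 ± 28.3, *Tgfbr1* at 62.9 ± 17.7, *Tgfbi* at 41.2 ± 19.5, *Smad2* at 35.4 ± 7.81 and *Smad7* at 10.3 ± 3.93 TPM. *Tgfb3*, with a median of 7.04 TPM, *Smad3*, with 4.65 ± 3.14 TPM, and *Tgfb2*, with a median of 2.39 TPM, were the lowest. *Nrros* was above *Tgfbr2* in 10 of 12 libraries, by 0.62 ± 0.33 on the log2(TPM + 1) scale (SD over 6 culture means). *Tgfbr2* and *Tgfb1* did not separate, as each was the higher in 6 libraries. *Tgfb1* was above *Tgfbr1* in 10 libraries and *Tgfbr1* above *Tgfbi* in 12. *Tgfbi* and *Smad2* did not separate (0.09 ± 0.62), whereas *Smad2* was above *Smad7* in all 12 libraries by 1.73 ± 0.34. Below that point no neighbours differed beyond their spread: *Smad7* was above *Tgfb3* by 0.46 ± 0.94, *Tgfb3* above *Smad3* by 0.65 ± 1.61 and *Smad3* above *Tgfb2* by 0.57 ± 1.19.

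**Figure D1:**
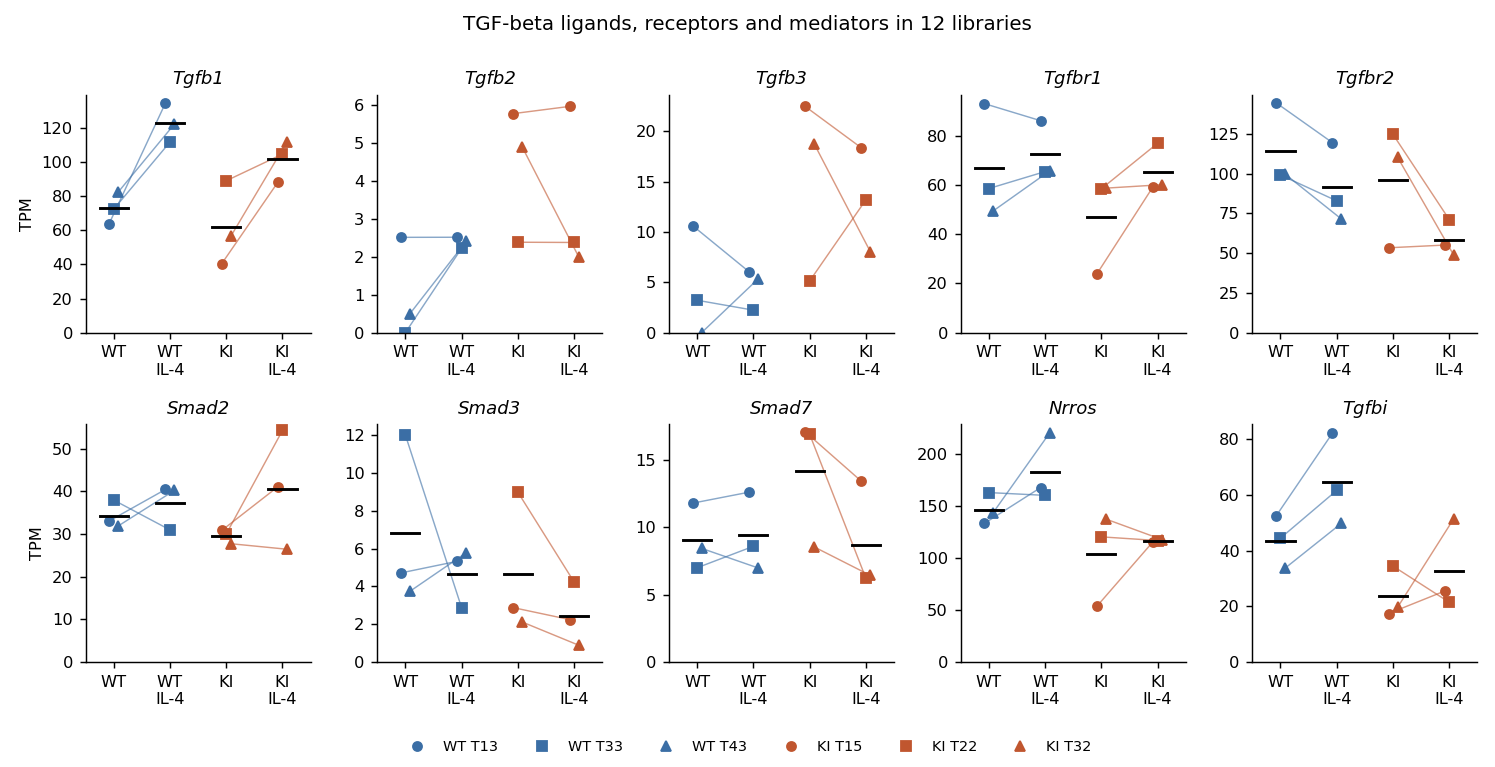
TPM (vertical axes, linear, starting at 0) of the 10 genes in the 12 libraries; each point is a library, lines join the untreated and the IL-4 library of a culture, and black bars are group means of 3 cultures (not drawn for Tgfb2 and Tgfb3, which are listed at 0 in a library). Tgfb1 is higher with IL-4 within every culture, and the KI points of Tgfbi in untreated libraries lie at 17.4, 34.4 and 19.6 TPM against 33.7 to 52.4 TPM in WT.

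The first comparison asked whether IL-4 changed these genes. In each of the 6 cultures *Tgfb1*, the ligand gene that dominates in microglia, was higher after IL-4. *Tgfbr2* was lower in 5 of 6, *Tgfbr1* and *Tgfbi* were higher in 5 of 6, and the other members were more evenly split between cultures. Differences were tested with limma on log2(TPM + 1) over 11204 genes whose mean on that scale exceeded 1.5, with an F-test that takes the average IL-4 difference and its difference between genotypes together, and Benjamini-Hochberg adjustment over all genes. By that test 0 of the 10 members passed the 0.05 threshold, where 0.893% of all genes passed, and 1 member (*Tgfb1*) had an unadjusted p under 0.05, where 7.27% of genes did. The median difference of the members was 0.27, against 0.04 for all genes tested.

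In WT cultures, always given in the order T13, T33, T43, *Tgfb1* was at 63.8, 72.3 and 82.3 TPM untreated and at 134, 112 and 122 TPM with IL-4. In KI cultures, in the order T15, T22, T32, it was at 40.4, 89.0 and 56.4 TPM untreated and at 88.2, 105 and 112 TPM with IL-4. All IL-4 libraries of WT were thus above all untreated ones, which holds for 10.8% of genes, and the KI groups overlapped by T15 with IL-4 falling just under untreated T22. The difference averaged 0.76 on the log2 scale (SE 0.17; limma F-test, unadjusted p = 0.0023, adjusted p = 0.151), from 0.23 in T22 to 1.11 in T15. An increase in all 6 cultures was seen in 5.73% of genes. With the culture as a replicate block, which compares each IL-4 library with its own untreated partner, *Tgfb1* passed the threshold in the limma fit (adjusted p = 0.0368) and was the only member to do so, where 1.79% of genes passed as higher. When the average difference was tested alone, *Tgfb1* also passed (limma, adjusted p = 0.0458), where 1.14% of genes passed as higher. The blocked call was lost in 5 of 6 fits that left out a culture (adjusted p from 0.0899 to 0.149 without T15, T32, T13, T33 or T43) and kept without T22 (adjusted p = 0.00864). The call from the average difference alone was lost in 4 of 6 such fits (adjusted p from 0.19 to 0.267 without T32, T13, T33 or T43).

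*Tgfb2* and *Tgfb3* were scarce by comparison and showed no common direction with IL-4. *Tgfb2* was at 2.51, 0 and 0.497 TPM in untreated and 2.51, 2.23 and 2.41 TPM in IL-4-treated WT libraries, and at 5.77, 2.38 and 4.88 TPM untreated and 5.96, 2.38 and 2.00 TPM with IL-4 in KI. *Tgfb3* was at 10.6, 3.22 and 0 TPM in untreated and 6.06, 2.24 and 5.31 TPM in IL-4-treated WT libraries, and at 22.5, 5.13 and 18.7 TPM untreated and 18.3, 13.2 and 8.02 TPM with IL-4 in KI. A value of 0 means only that the gene is listed at 0, since among 2538 well expressed genes (median over 50 TPM) 2 were also at 0 in some library. The IL-4 differences were 0.32 (SE 0.42) for *Tgfb2* and 0.23 (SE 0.55) for *Tgfb3*, within their errors. *Tgfb1* therefore made up most of the ligand transcripts, 92.7 ± 8.65% of the summed ligand TPM in untreated WT, 94.7 ± 1.23% in IL-4-treated WT, 73.8 ± 16.9% in untreated KI and 85.7 ± 6.78% in IL-4-treated KI libraries (SD, n = 3). The lowest share, 58.9%, was in untreated T15 and the next, 70.5%, in untreated T32. The summed ligand level was 78.4 ± 3.86 and 81.7 ± 14.0 TPM in untreated WT and KI libraries and 130 ± 13.5 and 118 ± 4.95 TPM with IL-4.

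The receptor genes differed in opposite directions, neither past the threshold. *Tgfbr2*, the ligand-binding type II receptor gene, was at 145, 99.2 and 99.8 TPM in WT libraries without IL-4 and 120, 82.9 and 71.6 TPM in the same cultures with IL-4, and at 53.4, 125 and 110 TPM in untreated KI and 55.1, 71.1 and 48.7 TPM with IL-4. It was lower with IL-4 in every culture but T15, where it was low in both libraries. *Tgfbr1*, the type I receptor gene, was at 93.0, 58.5 and 49.5 TPM in untreated and 86.1, 65.4 and 65.7 TPM in IL-4-treated WT, and at 23.8, 58.4 and 58.7 TPM in untreated and 59.3, 76.9 and 60.1 TPM in IL-4-treated KI libraries. It was higher in 5 of 6 cultures, and all IL-4-treated KI libraries lay just above the untreated ones, which holds for 5.47% of genes. Neither passed the limma test (*Tgfbr2* -0.49, SE 0.21, adjusted p = 0.806; *Tgfbr1* 0.36, SE 0.23, adjusted p = 0.942).

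The ratio of the 2 receptor levels, in which the scaling of a library cancels, was lower after IL-4 in each of the 6 cultures. *Tgfbr2* stood to *Tgfbr1* at a TPM ratio of 1.76 ± 0.237 in untreated WT and 1.25 ± 0.151 in IL-4-treated WT libraries, and at 2.09 ± 0.186 in untreated KI and 0.889 ± 0.0671 in IL-4-treated KI libraries (SD, n = 3). The lowest untreated ratio was 1.56 and the highest with IL-4 was 1.39, so the treatments did not overlap. The ratio was chosen after its values were seen, so it is given without a test.

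**Figure D2:**
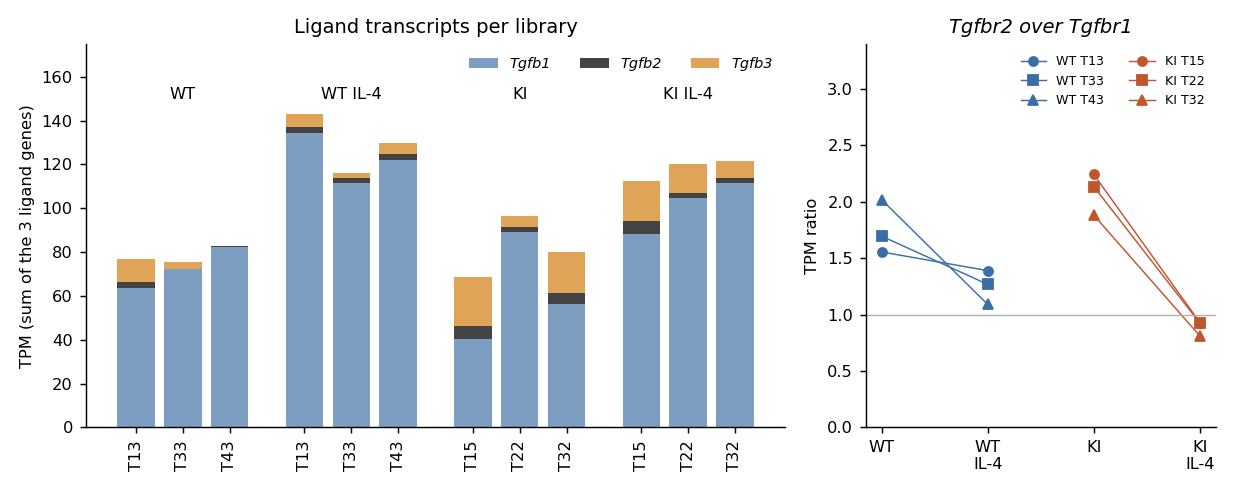
Left, TPM of the 3 ligand genes stacked for each library (linear axis from 0); right, the ratio of Tgfbr2 to Tgfbr1 TPM, with lines joining the libraries of a culture and a grey line at a ratio of 1. Tgfb1 is the main part of every bar, the Tgfb3 part is tallest in untreated T15 and T32, and the receptor ratio drops within every culture, to 0.811 to 0.930 in KI.

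The SMAD genes and the remaining members did not change with IL-4 beyond the spread between cultures. *Smad2* was at 33.1, 38.0 and 31.9 TPM in untreated and 40.4, 31.0 and 40.2 TPM in IL-4-treated WT, and at 30.8, 30.0 and 27.7 TPM in untreated and 41.1, 54.3 and 26.4 TPM in IL-4-treated KI libraries, a difference of 0.25 (SE 0.18). *Smad3*, its partner, was at 4.72, 12.0 and 3.74 TPM in untreated and 5.33, 2.87 and 5.78 TPM in IL-4-treated WT, and at 2.88, 8.99 and 2.11 TPM in untreated and 2.25, 4.23 and 0.892 TPM in IL-4-treated KI libraries (difference -0.50, SE 0.43). *Smad2* thus exceeded *Smad3* in every library, at TPM ratios from 3.16 to 29.6. *Smad7*, the inhibitory SMAD gene, was at 11.8, 6.99 and 8.43 TPM in untreated and 12.6, 8.58 and 6.98 TPM in IL-4-treated WT, and at 17.1, 16.9 and 8.53 TPM in untreated and 13.4, 6.21 and 6.42 TPM in IL-4-treated KI libraries (difference -0.32, SE 0.30). It was lower with IL-4 in all 3 KI cultures and in 1 of 3 WT cultures. *Nrros* was higher in 3 cultures and lower in 3 (difference 0.29, SE 0.20), and *Tgfbi*, which encodes an extracellular matrix protein induced by TGF-beta, was higher in 5 of 6 (difference 0.48, SE 0.25), with T22 the exception.

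The second comparison asked whether the R47H allele changed these genes. *Tgfbi* and *Nrros* were lower in KI than in WT libraries, and *Tgfb3* and *Tgfb2* were higher, but none passed the genotype test. By the F-test of the genotype difference together with the interaction in limma, 0 of 10 members passed, where 1.65% of all genes passed, and 3 members (*Tgfbi*, *Nrros* and *Tgfb3*) had an unadjusted p under 0.05, where 16.1% of genes did. The median member difference was -0.32, against 0.13 for all genes tested. Under quantile normalization that median of all genes was -0.08, and under median-ratio scaling -0.01, so a KI difference is best read against it.

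*Tgfbi* was at 52.4, 44.5 and 33.7 TPM in WT libraries without IL-4 and 17.4, 34.4 and 19.6 TPM in untreated KI libraries, and at 82.1, 61.6 and 49.8 TPM with IL-4 in WT and 25.5, 21.4 and 51.5 TPM in KI. The KI values were mostly the lower, but T22 untreated and T32 with IL-4 reached into the WT range. The difference was -0.95 on the log2 scale (SE 0.25; limma, unadjusted p = 0.0061, adjusted p = 0.123). Tested as a single coefficient, it passed (limma, adjusted p = 0.0408), where 1.19% of genes passed as lower; with the culture as a replicate block it did not (adjusted p = 0.2). The single-coefficient call was lost when T15, T13, T33 or T43 was left out (adjusted p from 0.099 to 0.163), and without T15 the difference was -0.80.

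*Nrros* was at 133, 163 and 144 TPM in WT libraries without IL-4 and 53.6, 120 and 138 TPM in untreated KI libraries, which overlapped. With IL-4 it was at 168, 160 and 220 TPM in WT and at 116, 117 and 118 TPM in KI, with every KI library below every WT library, as for 5.79% of genes. The average difference was -0.61 (SE 0.20; limma, adjusted p = 0.228), and without T15 it was -0.40. *Tgfbr2* also lay lower in every KI than in every WT library with IL-4, and its difference over both treatments was -0.47 (SE 0.21, adjusted p = 0.433). *Tgfbr1* (-0.35, SE 0.23) and *Tgfb1* (-0.29, SE 0.17) leaned the same way, and without T15 both were near 0 (-0.11 and -0.10).

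*Tgfb3* differed in the opposite direction, by 1.66 (SE 0.55; limma, adjusted p = 0.238), and all IL-4-treated KI libraries were above all IL-4-treated WT libraries, as for 12.7% of genes. *Tgfb2* differed by 0.92 (SE 0.42, adjusted p = 0.326). Both were highest in T15, the culture with the most astrocyte marker RNA, and without it the differences were 1.35 and 0.64. The part of other cells in these 2 genes was not tested. *Smad7* (0.21, SE 0.30) and *Smad2* (-0.07, SE 0.18) did not differ beyond their errors. *Smad3* differed by -0.65 (SE 0.43) and did not pass (limma, adjusted p = 0.675). Under quantile normalization the sign for *Smad7* turned (-0.08). Untreated *Smad2* was the 1 case without overlap before IL-4, with KI libraries between 27.7 and 30.8 TPM and WT libraries between 31.9 and 38.0 TPM, a pattern that 4.55% of genes share.

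**Figure D3:**
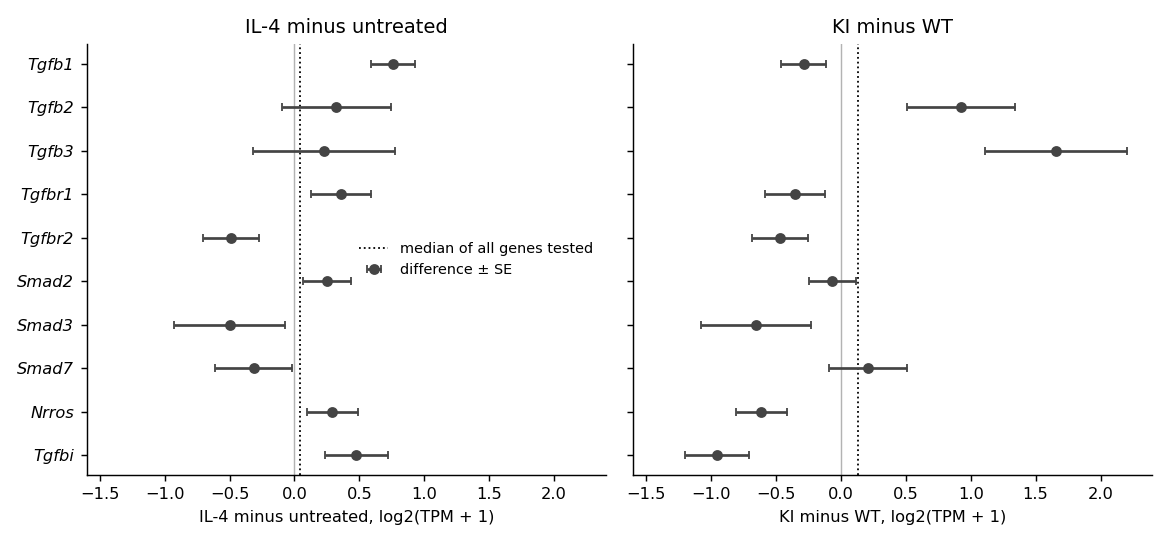
Average differences of the 10 genes on the log2(TPM + 1) scale, IL-4 minus untreated (left) and KI minus WT (right), with bars of 1 SE from the limma fit over 12 libraries; the dotted line is the median of all 11204 genes tested. Tgfb1 stands farthest to the right for IL-4 (0.76), and for genotype Tgfb3 (1.66) and Tgfbi (-0.95) mark the ends.

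Since the summed microglia markers were lower in KI libraries, the members were also set against it, as TPM per 1000 TPM of summed microglia markers, a list that includes *Trem2*. On that scale *Nrros* was 3.78 ± 0.381 in untreated WT, 4.08 ± 1.07 in untreated KI, 4.06 ± 0.879 in IL-4-treated WT and 3.68 ± 0.662 in IL-4-treated KI libraries (SD, n = 3), so the 4 groups overlapped. *Tgfbi* was 1.12 ± 0.231 and 0.955 ± 0.173 untreated and 1.41 ± 0.248 and 1.01 ± 0.430 with IL-4 in WT and KI, and the genotypes overlapped as well. *Tgfb1* was higher with IL-4 on this scale as on the other, going from 1.87 ± 0.259 to 2.70 ± 0.0728 in WT and from 2.45 ± 0.271 to 3.15 ± 0.232 in KI, with no overlap between treatments in either genotype. Between genotypes *Tgfb1* leaned lower in KI by TPM, but on this scale KI lay wholly above WT. Untreated values were 2.17 to 2.71 in KI against 1.63 to 2.15 in WT, and IL-4 values 2.92 to 3.38 against 2.65 to 2.79. Within each treatment the divisor was smaller in all KI libraries, which raises the KI values of any gene on this scale. The turn therefore cannot separate a difference in *Tgfb1* from the lower marker sum. *Tgfbr1*, raised in KI by the same divisor, turned too with IL-4, where the lowest KI value was just above the highest WT value (both 1.70). *Tgfbr2* went from 2.95 ± 0.652 to 1.99 ± 0.363 in WT and from 3.77 ± 0.498 to 1.82 ± 0.392 in KI, again without overlap. *Tgfb3* was at most 0.272 in any WT library and reached 1.37 in untreated and 0.703 in IL-4-treated T15. The other cases in which KI lay wholly above WT on this scale were *Tgfb2* in both treatments, *Tgfb3* with IL-4 and untreated *Smad7*. The share of all genes that do so on this scale was not computed, so these cases are not set apart from other genes. These ratios are descriptions and were not tested.

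The third comparison asked whether the IL-4 difference depended on genotype. In limma 0 of 10 members passed the interaction test, where 0.0% of the 11204 genes passed, and 0 members had an unadjusted p under 0.05, where 3.19% of genes did. The replicate block also gave 0. The differences between the IL-4 effect in KI and in WT ranged from -1.27 (SE 0.84) for *Tgfb2* to 0.42 (SE 0.46) for *Tgfbr1*. For *Tgfb1* the difference was 0.02 with an SE of 0.34, so a dependence of a size near its own IL-4 difference is not well bounded by 3 cultures per genotype.

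Around the members, 86 further genes of the pathway were listed, of which 72 passed the expression filter. With IL-4, 2 of the 72 fell and 0 rose, against 0.143% and 0.75% of all genes, and their median difference was 0.04, as for all genes. *Bambi*, which encodes a decoy receptor that lacks the kinase domain and blocks TGF-beta signaling, fell from 35.5 ± 3.79 to 14.7 ± 1.97 TPM in WT and from 43.2 ± 4.95 to 17.9 ± 0.954 TPM in KI libraries (SD, n = 3). All IL-4 libraries were below all untreated ones, as for 4.93% of genes in WT and 3.98% in KI, and the 6 within-culture differences ran from -1.36 to -1.03 on the log2 scale. The average was -1.22 (SE 0.16; limma, adjusted p = 0.00359), and it passed in every alternative fit and without any culture, with adjusted p-values between 0.000895 and 0.0471. *Cx3cr1*, the fractalkine receptor gene, fell from 527 ± 177 to 244 ± 124 TPM in WT and from 318 ± 40.6 to 143 ± 16.0 TPM in KI (-1.16, SE 0.21; limma, adjusted p = 0.042), a call that was lost without any of T15, T22, T32, T33 and T43 (adjusted p up to 0.225), without the expression filter (0.378), without the variance trend (0.203) and with a pseudocount of 0.1 (0.0517). It passed with the replicate block (adjusted p = 0.000195).

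**Figure D4:**
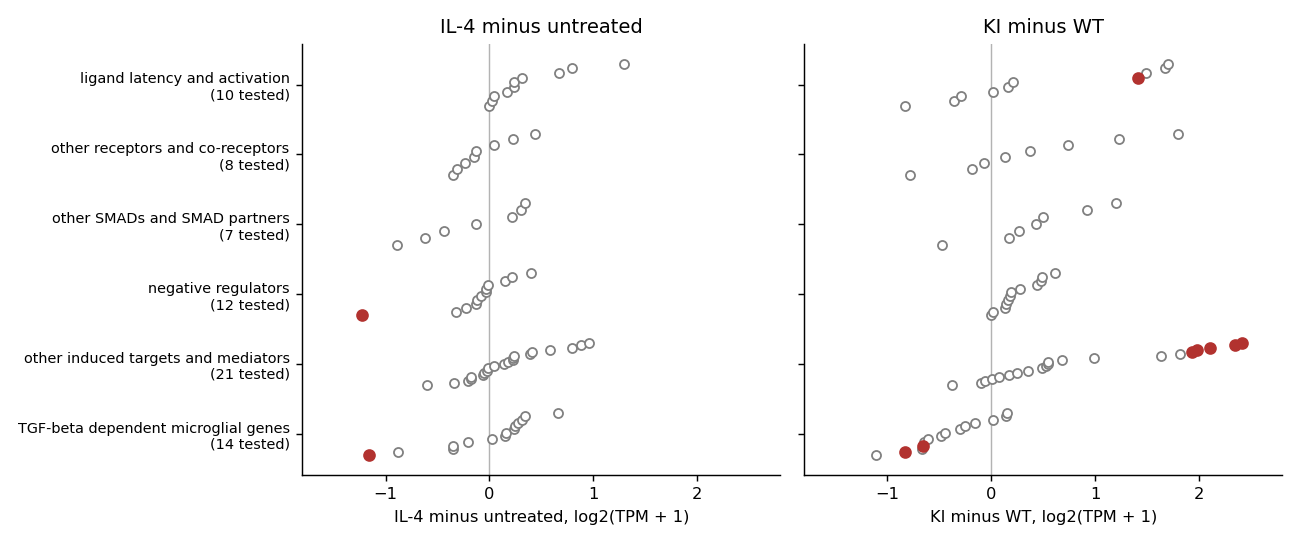
Average differences of the 72 further pathway genes on the log2(TPM + 1) scale, IL-4 minus untreated (left) and KI minus WT (right), 1 row of points per gene list; filled red points passed the limma F-test (adjusted p under 0.05), open points did not. For IL-4 the red points are Bambi (-1.22) and Cx3cr1 (-1.16); for genotype 6 lie to the right, led by Ccn1 (2.41), and 2 to the left, Csf1r (-0.83) and Fcrls (-0.66).

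By list, the IL-4 counts were 0 of 10 genes of ligand latency and activation, 0 of 8 other receptors and co-receptors, 0 of 7 other SMADs and partners, 1 of 12 negative regulators, 0 of 21 other induced genes and 1 of 14 TGF-beta dependent microglial genes. Among those with the largest differences that did not pass were *Itgb3*, the integrin beta3 gene (1.30, SE 0.44, adjusted p = 0.597), and *Ltbp2*, of the latent TGF-beta binding proteins (0.80, SE 0.48). *Gadd45b*, a stress-induced target (0.96, SE 0.36), and *Fn1*, the fibronectin gene (0.88, SE 0.48), did not pass either. *Fn1* passed with the replicate block (limma, adjusted p = 0.0146), as did *Fcrls*, an Fc receptor-like microglial gene that was higher with IL-4 in 6 of 6 cultures (0.66; block adjusted p = 0.00744; 0.0208 when the average difference was tested alone). In the remaining lists the largest were *Trim33*, an E3 ligase that binds SMADs (-0.89, SE 0.38), *Smad6*, the other inhibitory SMAD gene (-0.62, SE 0.39), *Cd109*, a TGF-beta co-receptor gene (0.44, SE 0.74), *Eng*, which encodes endoglin (-0.35, SE 0.40), *Ldlrad4*, an inhibitor of receptor signaling (0.40, SE 0.33), and *Gpr34*, a microglial receptor gene (-0.88, SE 0.44).

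By genotype, 6 of the 72 pathway genes were higher and 2 lower in KI, against 1.29% and 0.357% of all genes, and 25 had an unadjusted p under 0.05, where 16.1% of all genes did. Of these 6, 5 were among the 21 other induced genes and *Thbs1* was of the latency and activation list. *Ccn1* and *Ccn2*, which encode secreted matricellular proteins (CCN2 is also known as CTGF), were at 77.1 ± 42.3 and 48.1 ± 26.2 TPM in untreated WT and at 476 ± 74.8 and 368 ± 97.2 TPM in untreated KI libraries (SD, n = 3). All untreated KI libraries were above all untreated WT libraries for both, as for 13.6% of genes. *Acta2* and *Tagln*, genes of contractile and myofibroblast-like cells, were at 112 ± 42.3 and 89.2 ± 56.8 TPM in WT and 660 ± 138 and 474 ± 120 TPM in KI. *Thbs1*, whose product thrombospondin-1 can release latent TGF-beta, was at 22.9 ± 12.9 and 71.1 ± 23.6 TPM. *Tgfb1i1*, which encodes the focal adhesion protein HIC-5 and was named after its values were seen, was at 10.1 ± 7.60 and 47.2 ± 12.0 TPM (difference 1.98, SE 0.38; limma, adjusted p = 0.0395). The differences of the remaining 5 over both treatments were 2.41 (SE 0.30) for *Ccn1*, 2.34 (SE 0.32) for *Ccn2*, 2.11 (SE 0.23) for *Acta2*, 1.93 (SE 0.26) for *Tagln* and 1.41 (SE 0.26) for *Thbs1*, with adjusted p-values in limma of 0.00597, 0.00674, 0.00296, 0.00626 and 0.0369.

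*Acta2* and *Tagln* are themselves in the list of mural and fibroblast markers, of which 4 of the 7 tested rose in KI, and the part of such cells in *Ccn1*, *Ccn2* and *Thbs1* was not tested. Without culture T33 none of these 5 genes passed (adjusted p from 0.0553 to 0.22), without T43 *Ccn1* and *Tagln* were lost too (0.0606 and 0.0571), and *Thbs1* passed only without T13, as did *Tgfb1i1* (adjusted p from 0.0651 to 0.191 without any of the other cultures), while each difference stayed above 1.19 on the log2 scale whichever culture was left out. With the replicate block 4 pathway genes passed as higher and 0 as lower, against 0.5% and 0.187% of all genes; *Thbs1* was at an adjusted p of 0.0756 there, and did not pass under median-ratio scaling (0.0543) or quantile normalization (0.0747) either. Without the expression filter none of the 5 passed (adjusted p from 0.0692 to 0.246), and without the variance trend *Ccn2*, *Tagln* and *Thbs1* were lost (0.0524, 0.0524 and 0.0989). *Tgfb1i1* was lost with the block (0.0783), without the filter (0.262), without the trend (0.097) and with a pseudocount of 0.1 (0.0605). Of the 14 TGF-beta dependent microglial genes 2 were lower in KI, *Csf1r*, the receptor gene for the main microglial survival factor (689 ± 173 TPM in untreated WT and 368 ± 54.2 in untreated KI; -0.83, SE 0.16, adjusted p = 0.0408), and *Fcrls* (811 ± 67.3 and 475 ± 37.0 TPM; -0.66, SE 0.13, adjusted p = 0.0456). Neither passed with the replicate block (adjusted p = 0.0648 and 0.0778), and both were lost without T15, T22, T13, T33 or T43 (adjusted p from 0.0601 to 0.304), *Fcrls* also without T32 (0.115). Both were also lost without the filter (0.262 and 0.235), without the trend (0.149 and 0.17) and with a pseudocount of 0.1 (0.0561 and 0.059), and *Csf1r* under quantile normalization (0.0524). These genes are lower in the libraries in which the summed microglia markers are lower too, and *Csf1r* is itself among those markers.

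**Figure D5:**
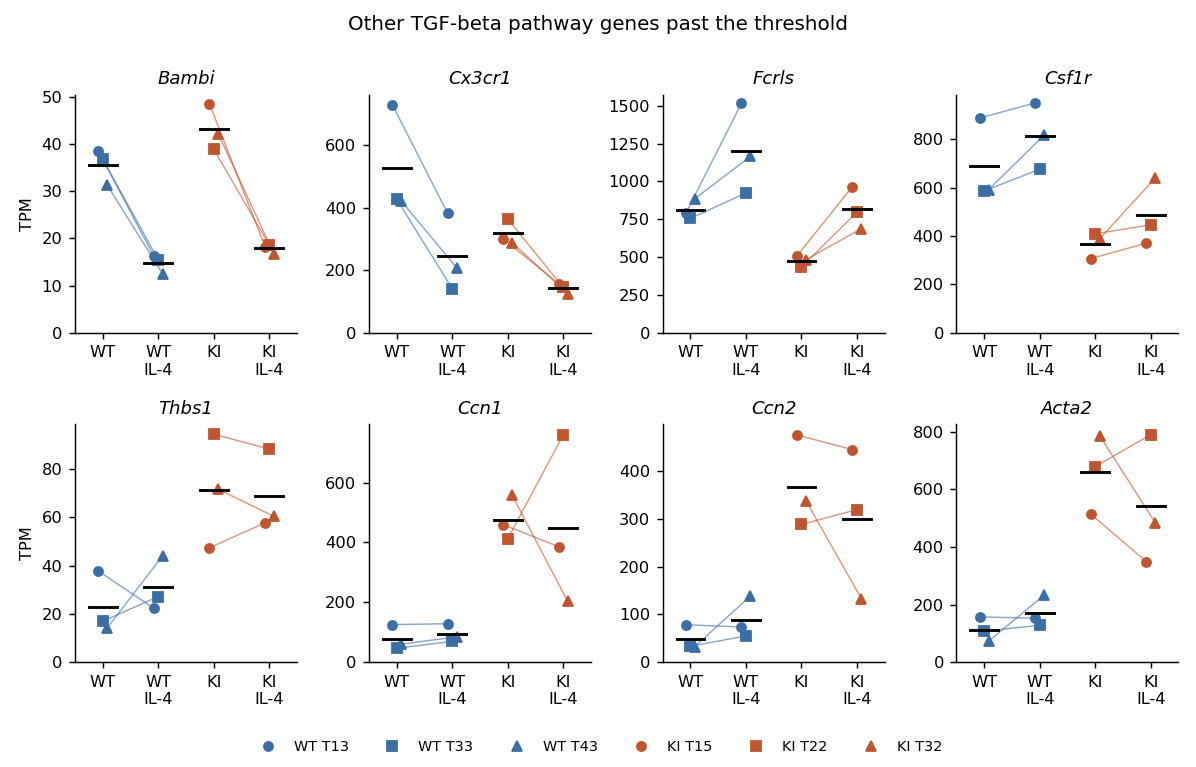
TPM (linear axes from 0) of 8 pathway genes that passed a test, drawn as in the plot of the members; black bars are means of 3 cultures. Bambi and Cx3cr1 drop within all 6 cultures, and untreated Ccn1, Ccn2 and Acta2 lie above all untreated WT libraries in every KI culture.

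When the genotype difference was tested as a single coefficient, 11 of the 72 genes passed as higher in KI in place of 6. Of all genes 3.95% passed as higher. As lower 2 of the 72 passed, where 1.19% of all genes did. The 5 gained were *Tsc22d1*, a transcription regulator gene (1.82, SE 0.48; limma, adjusted p = 0.134 by the F-test and 0.0446 alone), *Vasn*, a TGF-beta trap (1.79, SE 0.45; 0.106 and 0.0375), *Gadd45b* (1.63, SE 0.36; 0.0596 and 0.0205), *Cdkn2b*, a cell cycle inhibitor gene (0.99, SE 0.26; 0.126 and 0.0454), and *Fkbp1a*, whose product holds the type I receptor silent (0.48, SE 0.13; 0.0845 and 0.0438). *Tsc22d1*, *Gadd45b* and *Cdkn2b* were named here after their values were seen. Among the largest differences of each list, those that passed neither way were *Ltbp3*, which encodes a latent TGF-beta binding protein (1.70, SE 0.51), *Itgb8*, the integrin beta8 gene whose product activates latent TGF-beta (1.67, SE 0.54), *Cd109* (1.23, SE 0.74), *Smad6* (1.20, SE 0.39), *Smad5* (0.92, SE 0.43), *Nedd4l*, a ubiquitin ligase for SMADs (0.62, SE 0.35), and *Gpr34* (-1.11, SE 0.44). *Itgb8* was at 12.8 TPM in untreated T15 and at most 1.71 TPM in any WT library. *Lrrc32*, which encodes the ligand-holding relative of NRROS on other cell types, was at most 6.22 TPM in any library, against at least 53.6 TPM for *Nrros*. For the interaction 0 of the 72 genes passed and 2 had an unadjusted p under 0.05, where 3.19% of all genes did; the largest were those of *Col1a1*, a collagen gene (-2.22, SE 1.21), *Acvr2a*, an activin receptor gene (1.62, SE 0.77), and *Fn1* (-1.56, SE 0.95). The other differences that led their lists were those of *Ltbp2* (-1.20), *Eng* (-1.18), *Smad5* (-1.12), *Smurf1*, a ubiquitin ligase gene (-1.09), *Itgb1*, the integrin beta1 gene (-0.56), *P2ry12*, a purinergic receptor gene of mature microglia (0.71), and *Smad6* (0.46), and those of *Fkbp1a* and *Slco2b1* are given at the end.

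Finally, the genes whose levels most resembled those of each member over the 12 libraries, 2 per culture, were listed by Pearson's r on the log2 scale. *Tgfb1* was nearest to *Npc2* (r = 0.950), *Tbxas1* (0.949) and *Cd84* (0.947), and *Nrros* to *Efhd2* (0.966), *Slc7a8* (0.961) and *Myo1f* (0.932). *Tgfbi* was nearest to *Ucp2* (0.920), *Slc37a2* (0.909) and *Csf1r* (0.909), and *Tgfbr2* to *Inpp5d* (0.949), *Tifa* (0.918) and *Cables2* (0.918). *Tgfb3* was nearest to *Prkar1a* (0.951), *Emp2* (0.948) and *Lpin1* (0.947), *Tgfbr1* to *Rex2* (0.904), *Apobec3* (0.903) and *Gm8430* (0.899), and *Tgfb2* to *Ttll5* (0.964), *Gm3764* (0.962) and *Atp5o* (0.950). The SMAD genes had weaker neighbours in *Smad2* with *Zfp704* (0.885), *Dcaf8* (0.854) and *Gcn1l1* (0.845) and *Smad3* with *Camk2g* (0.886), *Paxip1* (0.877) and *A230060F14Rik* (0.875), whereas *Smad7* was nearest to *Setd5* (0.927), *Gsr* (0.868) and *Spp1* (0.867). Each is the top of 11204 genes, so high values are found for any member.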

How the data were processed

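After adaptor trimming (Trim Galore), the authors estimated abundances with Salmon against GRCm38 and summed them by gene; tool versions are not given in the sources used here. The deposited values are TPM per gene and library, which keep no read counts, so depth and counting error are unknown and precision rests on the spread between 3 cultures per genotype. Gene names and positions came from a GRCm38 annotation. Values were tested as log2(TPM + 1) in genes with a mean above 1.5 (11204) with limma 3.58.1 in R 4.3.3, with a variance trend, genotype, IL-4 and their interaction, at a Benjamini-Hochberg threshold of 0.05. The fit was tested on simulated data. Untreated and IL-4 libraries of a culture carry the same culture number and so come from the same animal or litter; deviations of partners from their group means correlated at 0.0792 to 0.378, and the partner was the best match in 5 of 6 cultures (T22 reached 0.121 with its partner and 0.188 with another culture). The block was fixed for IL-4 and random for genotype (within-culture correlation 0.198).

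Promoters are RefSeq windows. The members, lists and motifs were chosen with earlier results of these data known. All members were named, and from each list the genes past the threshold (at most 4) and the 2 with the largest differences; the ratios, *Fcrls* and *Fn1* under the block, *Lrrc32*, *Tgfb1i1* and *Myh11* were added after their values were seen. Alternatives were the block, tests of 1 coefficient, each culture left out, scaling by quantiles or by median ratios, no trend, a pseudocount of 0.1, and filters at 3 or none; leaving out cultures under the block or the 1-coefficient test was chosen after seeing the data.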

Additional observations from a re-analysis of the deposited data

Results flagged for a closer look

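Among the members and the named pathway genes, 2 had every WT culture moving one way with IL-4 and every KI culture the other. The share of all genes with this pattern was not computed, so the 2 are not set apart from other genes. *Fkbp1a* was higher with IL-4 in the 3 WT cultures (0.11 to 0.19 on the log2 scale) and lower in the 3 KI cultures (-0.82 to -0.13), a difference of -0.52 between genotypes (SE 0.25). *Slco2b1*, a microglial transporter gene, was lower in the 3 WT cultures (-0.27 to -0.04) and higher in the 3 KI cultures (0.48 to 0.75), a difference of 0.84 (SE 0.42). Neither passed the interaction test in limma over all genes (adjusted p = 1.0 for both), and no alternative fit made either pass.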

How the results depend on the processing

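In no alternative did a member pass the interaction test. For IL-4 the number of members past the threshold was 1 in place of 0 with the replicate block (*Tgfb1*) and 1 with the 1-coefficient test (*Tgfb1*), and for genotype 1 with the 1-coefficient test (*Tgfbi*); other settings, and leaving out any culture, gave 0. No member was below the expression filter as used, so nothing had to be tested without it. The replicate block gave 240 genes for IL-4 in place of 100 and 77 for genotype in place of 185, and beyond the values given with the results it changed no call of a named gene. The number of genes past the threshold for genotype also depended on the filter (16 without it), the variance trend (26 without it), the 1-coefficient test (575) and the cultures, from 3 without T33 to 191 without T13; for IL-4 it was 61 without a filter, 50 without the trend, 151 with the 1-coefficient test and 46 to 143 without a culture. Of the genotype calls, 106 were higher and 73 lower under median-ratio scaling and 84 and 56 under quantile normalization, against 145 and 40. The interaction gave 4 genes without the filter and 0 otherwise.

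Signs turned in small differences. Without 1 culture, *Tgfb3* ranged from -0.31 to 0.54 with IL-4 (below 0 without T43 or T22), *Cd109* from -0.0333 to 0.93 and *Eng* from -0.62 to 0.0086. By genotype *Smad2* ranged from -0.189 to 0.091 and *Smad7* from -0.0327 to 0.437, and *Smad7* was -0.0808 under quantile normalization. The interaction of *Tgfb1* ranged from -0.15 to 0.29. The cause was not tested. With TPM alone, low genes such as *Tgfb2* and *Smad3* have no known counting error.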
